A study of Rattus norvegicus with 6 samples.

Results

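Store calcium entry and release channels were examined in ChIP-seq peak lists of PC12 cells. The 9 genes were chosen by name as Trpc1, Trpc4, Trpc5, Trpc6, Stim1, Stim2, Itpr1, Itpr2 and Ryr2, and every peak that the authors' annotated table assigns to them was taken, 306 of 159452 peaks, for 9 of its 14390 genes. The genes were proposed with their peak positions and signals already known, so these values are given as a description, without a test. The series profiled PC12 cells, which derive from a rat tumour of the adrenal medulla, at passages 18 to 20. The cells stably carried either the pCDNA3 vector alone or human α1ACT, a transcription factor encoded within CACNA1A. All cells were fixed with 1% formaldehyde for 10 min. Each line gave 1 library with the M2 anti-FLAG antibody, 1 with an antibody labelled 1804 and 1 input. The labels title the α1ACT line Q11, and do not say what 1804 recognises or whether either line is a single clone. Every peak described here comes from the α1ACT 1804 library unless another is named, so no value has a replicate error, and the read depth is unknown.

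Cells hold calcium in the endoplasmic reticulum and release it through inositol trisphosphate receptors, which open after phospholipase C makes their ligand, and through ryanodine receptors, which open to calcium itself. When the store empties, the sensors STIM1 and STIM2, which stay in its membrane, gather close to the plasma membrane and open Orai channels there. TRPC channels are cation channels of the plasma membrane that open downstream of phospholipase C. In neurons and chromaffin cells these routes add to the calcium that enters through voltage-gated channels.

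RefSeq promoter windows were at hand for 8 of the 9 genes, all but Trpc1, from assembly GRCr8. The peak coordinates are on rn5, so no peak was placed on these letters. The 250 bases before the start of 3 genes are printed 5′ to 3′, with CpG dinucleotides in capitals, to set side by side Stim1, which had a peak 90 bp before its start, its paralogue Stim2, which had none near its start and whose window was the richest in CpG of the 8, and Trpc4, whose window was the poorest. They lie at chr1:166067964-166068213 (plus strand), chr14:61217081-61217330 (minus strand) and chr2:140501046-140501295 (plus strand) of GRCr8.

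Stim1: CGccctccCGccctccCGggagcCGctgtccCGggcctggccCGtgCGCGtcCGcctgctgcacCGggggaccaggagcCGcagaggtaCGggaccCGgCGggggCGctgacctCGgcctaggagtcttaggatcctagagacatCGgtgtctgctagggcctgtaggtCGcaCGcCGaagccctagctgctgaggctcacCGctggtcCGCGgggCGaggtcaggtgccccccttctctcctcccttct

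Stim2: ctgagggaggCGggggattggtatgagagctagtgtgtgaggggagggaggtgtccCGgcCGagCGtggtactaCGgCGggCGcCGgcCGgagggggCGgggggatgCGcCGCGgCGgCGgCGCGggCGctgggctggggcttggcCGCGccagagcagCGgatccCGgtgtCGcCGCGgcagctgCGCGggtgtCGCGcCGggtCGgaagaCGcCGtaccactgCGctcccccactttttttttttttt

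Trpc4: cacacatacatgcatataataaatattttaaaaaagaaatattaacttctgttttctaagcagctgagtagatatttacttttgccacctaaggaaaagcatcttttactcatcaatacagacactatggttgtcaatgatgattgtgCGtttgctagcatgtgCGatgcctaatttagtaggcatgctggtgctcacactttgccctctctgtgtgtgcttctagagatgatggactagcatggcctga

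The Stim1 window held 24 CpG dinucleotides and the Stim2 window 34, against 2 in the Trpc4 window and a median of 6 over 27457 rat windows. Ryr2 had 23, Itpr2 25, Trpc6 17, Trpc5 10 and Itpr1 9. Over 11390 genes of the authors' table with a window, 68.0% of the 3440 genes with at least 20 CpG had a peak within 1000 bp of the transcription start site (TSS), and 17.2% of the 4500 genes with under 10 had one. Of the 4 members with at least 20 CpG, Stim1 alone had such a peak. Trpc1, which had no window, is not in this comparison. Peaks were placed by rn5 starts and windows by GRCr8 starts, and whether these match was not tested. On either strand, GGGCGG, the GC box, occurred in the windows of Stim1, Stim2, Itpr2 and Ryr2 and in 32.4% of all windows. CCAAT occurred in those of Stim2 and Itpr2 and in 34.3% of all. The exact letters TATAAA, a common form of the TATA box, were in none of the 8 windows and in 13.1% of all. Variants of these letters were not counted. The E-box CACGTG was likewise in none of the 8 and in 5.79% of all. The cyclic AMP response element TGACGTCA was in none of the 8 and in 1.70% of all.

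The authors' signal is their own value per peak and ranks peaks within this list. All annotated peaks together had values between 2.00 and 899. Their median was 3.02, and the upper 10% began at 5.28. Many peaks shared a signal value with another annotated peak: 277 of the 306 member peaks and 86.8% of all annotated peaks. Small differences at the low end therefore rank nothing. Of the 306 peaks 15 lay in the upper 10% (4.90%). They belonged to Trpc1 with 3, Trpc4 with 4, Trpc5 with 1 and Stim2 with 7. Stim2 supplied 206 of the 306 peaks, and without it the share was 8 of 100 (8%).

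**Figure D1:**
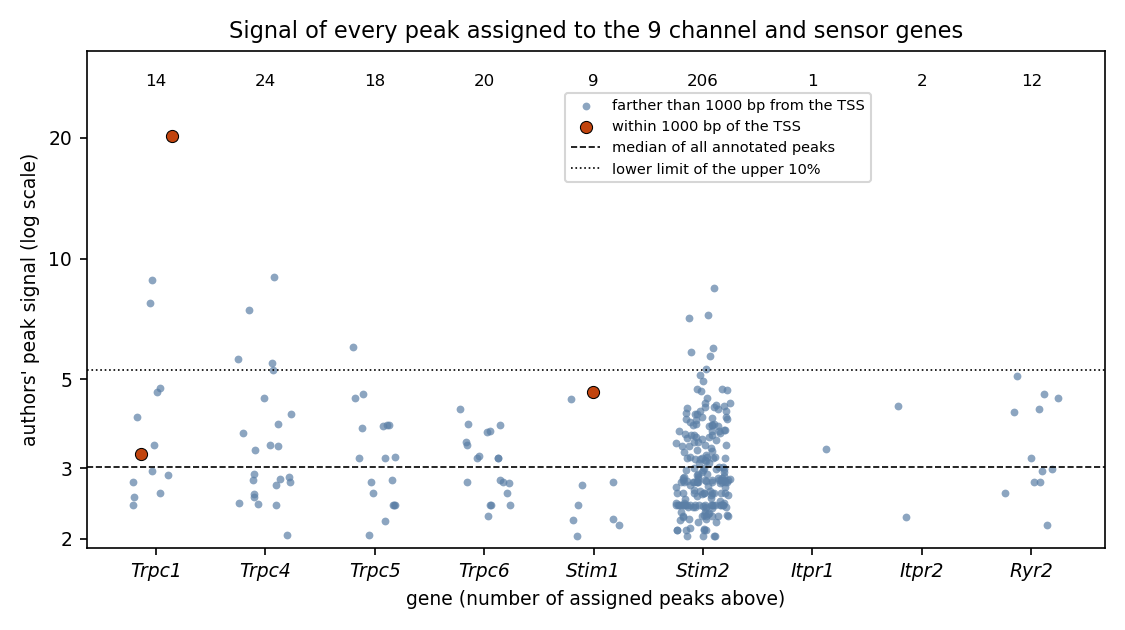
Each point is a peak assigned to the gene named on the x axis, and the y axis is the authors' signal on a log scale. The highest point, at 20.3, is a Trpc1 peak within 1000 bp of the TSS; of the other 8 genes, Stim1 alone has such a peak, at 4.65.

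Near a TSS, 2 of the 9 genes had a peak within 1000 bp, Trpc1 and Stim1, where 43.2% of the genes in the authors' table did. Within 3000 bp Ryr2 and Trpc6 joined them, which made 4 of 9 against 52.3% of all genes in the table. A peak of the upper 10% within 1000 bp was found at Trpc1 and no other member, against 19.7% of all genes in the table. These counts rest on the values by which the genes were chosen.

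Trpc1, a cation channel subunit that pairs with other TRPC proteins, had the highest peak of the set. On rn5 the gene runs over chromosome 8 from 102953740 to 103005377 on the minus strand. Its peak at 103005673 to 103005728, 296 bp upstream of the TSS, had a signal of 20.3. That was above 99.9% of all annotated peaks (rank 60) and stood at rank 9 among 9175 peaks within 1000 bp of a TSS. A second peak, 569 bp upstream of the TSS at 103005946 to 103006001, had a signal of 3.25, above 59.4% of annotated peaks. The promoter peak was thus 6.24 times its neighbour and 2.25 times the next highest peak of any member. Having 2 or more peaks within 1000 bp was shared with 15.1% of genes in the table. Both peaks lie between the Trpc1 start and the end of Pls1, an actin-bundling plastin gene on the same strand that ends 4123 bp upstream.

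Genes with at least 2 peaks near the TSS were compared with Trpc1, leaving out other members and placeholder symbols (LOC, RGD or MGC numbers). Closest to Trpc1 in rank by highest near-TSS signal were Tsc22d2 (rank 8, 21.1), Lrrc16b (rank 6, 21.2) and Lnpep (rank 12, 19.8). They had 4, 3 and 4 peaks near the TSS, and Trpc1 was at rank 9. The likeness is one of rank among 6219 genes in 1 library.

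Stim1, the store's main calcium sensor, had 1 peak near its TSS, on chromosome 1 from 173562412 to 173562467. It began 90 bp and ended 35 bp upstream of the TSS and had a signal of 4.65. That was above 84.9% of all annotated peaks and above 54.5% of those within 1000 bp of a TSS, where the median was 4.36. The other 8 Stim1 peaks ranged from 2.03 to 4.46. Of these, 6 formed a run of 4.47 kb in the intergenic stretch 12.2 to 7.75 kb upstream, and 2 lay in intron 1, 27.8 and 28.2 kb downstream of the TSS, with signals of 2.77 and 2.17. Another 3 peaks inside Stim1, at 3.74, 2.99 and 2.43, were assigned by nearest TSS to Rrm1, a ribonucleotide reductase subunit gene.

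Beyond 1000 bp, Ryr2 and Trpc6 had peaks at the edge of the promoter class of the annotation. Ryr2, the ryanodine receptor best known from heart and also made in brain, had one of signal 3.18 on chromosome 17, between 67703306 and 67703361, 1405 bp into the gene. Trpc6, a channel opened by diacylglycerol, had one on chromosome 8 from 6797283 to 6797338, 2281 bp upstream, with 4.22. The nearest peaks of the other members to their TSSs were 6565 bp downstream for Trpc4, 21584 bp upstream for Trpc5, 31942 bp upstream for Stim2, 32176 bp downstream for Itpr1 and 39781 bp upstream for Itpr2. Absence of a peak from this list says nothing on weaker enrichment there.

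**Figure D2:**
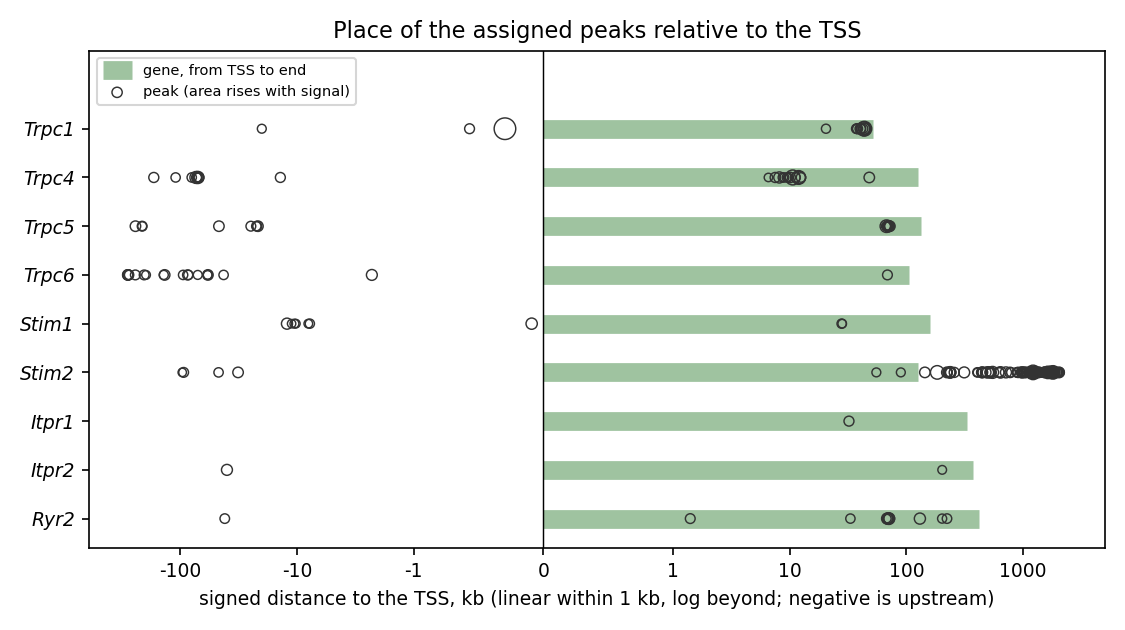
Each circle is an assigned peak at its signed distance to the TSS in kb (linear within 1 kb, log beyond), and green bars are the genes from TSS to end. Trpc1 and Stim1 have circles within 1 kb, and 200 of the 206 Stim2 circles lie past the end of the gene.

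Within genes, the peaks of Trpc1 (10 of 11), Trpc4 (13 of 16) and Trpc5 (10 of 13) lay mostly in a run inside 1 intron. In Ryr2, 6 of 12 lay in such a run. A run was taken as at least 5 peaks whose starts follow each other within 3000 bp, a definition chosen after seeing the data. Of the 306 member peaks 145 were in runs, 47.4% against 37.1% of all annotated peaks, and 51 of 100 without Stim2. With starts within 1000 bp, 73 were (23.9%, against 17.2% of all annotated peaks), and 23 of 100 without Stim2. The authors' intron numbers count from the low coordinate: along the gene from the TSS they rose in 818 of 818 plus-strand transcripts with peaks in at least 2 introns and fell in 824 of 824 on the minus strand. Introns are therefore numbered here from the 5′ end.

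Trpc1 had 10 peaks in a run of 6.82 kb in intron 8 of 13, 37.1 to 43.9 kb downstream of the TSS, on chromosome 8 from 102961466 to 102968288. Its signals, from the TSS outward, were 2.77, 2.96, 3.43, 4.02, 2.88, 2.54, 7.75, 4.66, 8.84 and 4.76. The higher values were at the end far from the TSS, where 7.75 and 8.84 were in the upper 10%. The remaining gene peak, in intron 3, had 2.61.

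Trpc4, the closest relative of Trpc5 in the family, had 13 peaks over 5.98 kb of intron 1, on chromosome 2 from 163163629 to 163169603 and 6.57 to 12.5 kb downstream of the TSS. Their signals lay between 2.05 and 9.01 (median 2.90), and 3 of them, at 9.01, 7.43 and 5.50, were in the upper 10%. Of the 7741 such runs genome-wide, 96.1% had fewer peaks. A second run of 6 peaks lay upstream, 73.5 to 69.4 kb before the TSS, with a highest signal of 5.62.

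Trpc5 had 10 peaks over 5.38 kb of intron 3 of 10, on chromosome X from 114144018 to 114149398. They ranged from 2.04 to 6.04, and the 6.04 peak, 67283 bp downstream of the TSS, was in the upper 10%. Ryr2 had 6 peaks over 3.26 kb of intron 5 of 101, on chromosome 17 from 67633616 to 67636871, from 2.17 to 5.10, all below the upper 10%. For comparison, the 1452 runs of 10 or more peaks in the table had a median span of 6.13 kb (quartiles 5.52 and 7.78), and 56.9% of them spanned 5 to 7 kb, as did those of Trpc1, Trpc4 and Trpc5.

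**Figure D3:**
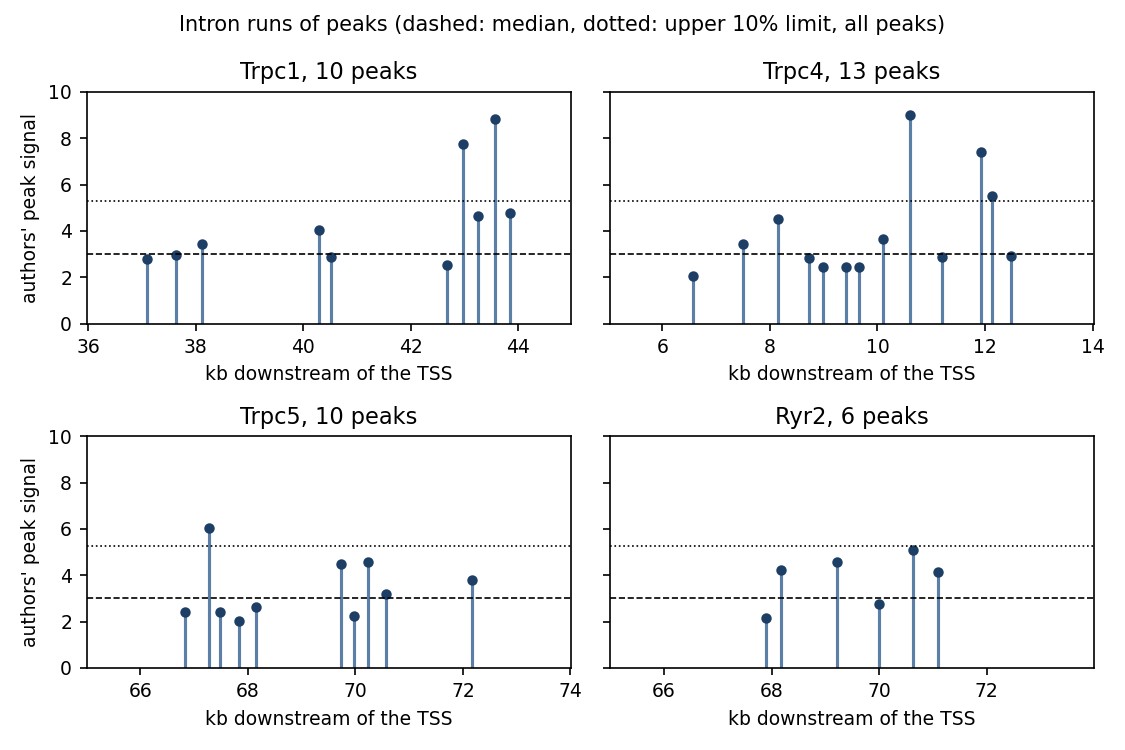
Each stem is a peak of an intron run, placed by kb downstream of the TSS (x axis) with the authors' signal (y axis); all panels are 9 kb wide. The Trpc1 run has 10 peaks with its highest, 8.84, far from the TSS, the Trpc4 run has 13 with a highest of 9.01, and the Ryr2 run has 6, none above the dotted limit of 5.28.

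Counted per gene length and whatever gene they were assigned to, 64 peaks lay inside the 9 genes. Trpc1 had 11 over 51.6 kb (21.3 per 100 kb), Trpc4 16 over 125 kb (12.8) and Trpc5 13 over 135 kb (9.66). Among 2643 genes of 50 to 200 kb in the table, whose median was 3.31 per 100 kb (quartiles 1.68 and 5.68), these were above 99.0%, 95.2% and 90.8%. Stim1 had 3.13, Stim2 1.59 and Trpc6, with a single peak of signal 3.18 in intron 3 of 12, 0.952. The high densities of Trpc1, Trpc4 and Trpc5 came mostly from 1 intron run each, with 10 of 11, 13 of 16 and 10 of 13 peaks. Genes without an assigned peak are not in the table, so its medians are those of genes with at least 1 peak assigned.

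Itpr1 and Itpr2, which encode inositol trisphosphate receptors, were sparse in peaks for their size. The third gene of that family, Itpr3, held 10 peaks over 63.9 kb, 15.7 per 100 kb. Itpr1, the main receptor of Purkinje cells, spans 333 kb and had 1 peak, in intron 4 of 61 with a signal of 3.36, on chromosome 4 between 204746947 and 204747002. Itpr2 spans 375 kb and had 3 inside. One of these, in intron 33 of 56 with a signal of 2.27, was assigned to it, and the other 2, with 2.04 and 2.43, to Sspn, a sarcospan gene. A further Itpr2 peak lay 39.8 kb upstream, with 4.30. Of 404 genes of at least 300 kb, whose median was 19 peaks, 3 were sparser per length than Itpr1 (0.300 per 100 kb) and 13 sparser than Itpr2 (0.801). Ryr2 had 12 over 420 kb, 2.86 per 100 kb, with 32.2% of such genes below it. Both Itpr genes lie on chromosome 4, which had the fewest peaks per Mb of the 21 chromosomes, 30.8 against 39.5 or more on each of the others. Its 40 genes of at least 300 kb had a median of 18 peaks, and 5 of them had 3 or fewer; the part of the chromosome in the Itpr counts was not tested.

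**Figure D4:**
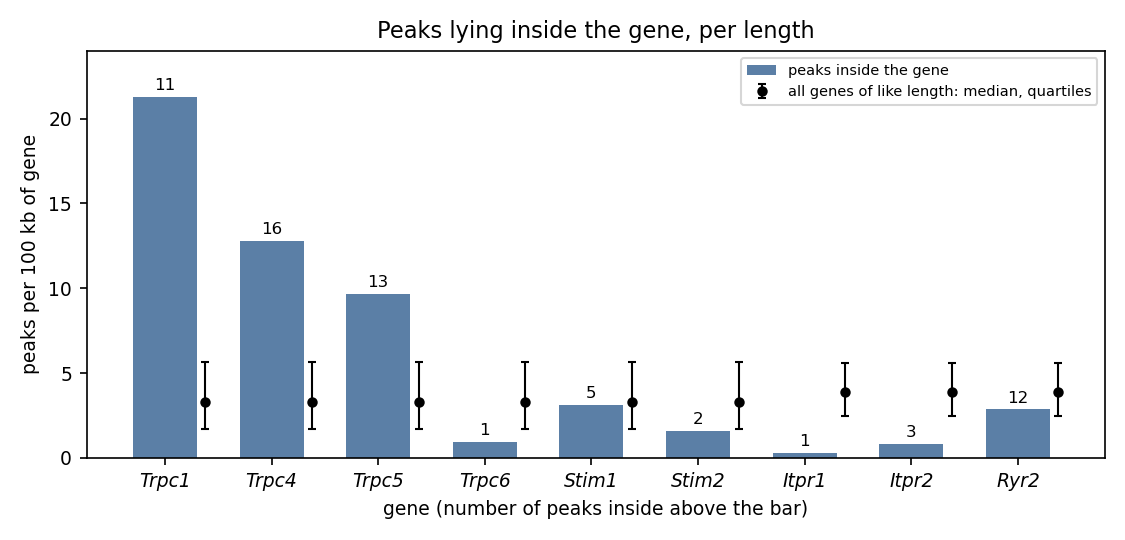
Bars give the peaks inside each gene per 100 kb of its length, with their number above the bar; black points and whiskers give the median and quartiles over all genes of like length in the authors' table (50 to 200 kb, or at least 300 kb for Itpr1, Itpr2 and Ryr2). Trpc1, Trpc4 and Trpc5 stand above the upper quartile, and Itpr1 and Itpr2 below the lower.

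Stim2, the sensor that responds to small losses from the store, was assigned 206 peaks but held 2 of them, in intron 2 and intron 3 of 11, each with a signal of 2.43 or below. Of the rest, 200 lay past the end of the gene, 2 in the intergenic stretch upstream and 2 in an intron of Tbc1d19, the next gene upstream. The median distance from the TSS was 1245 kb, and 159 peaks (77.2%) were more than 1 Mb away. They fall in the 4.11 Mb between Stim2 and Pcdh7, a protocadherin gene, that held 414 peaks, 200 assigned to Stim2 and 214 to Pcdh7 by distance. This stretch had 101 peaks per Mb, against 52.0 over chromosome 14. Its median signal was 2.82, below the 3.02 of all annotated peaks.

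The Stim2 peaks were uneven along the stretch. The fullest bins of 100 kb, with 27 peaks each, began 1100 and 1200 kb past the TSS, followed by 25 at 1800 kb and 21 at 1700 kb. There were 12 runs with 94 of the peaks, and the one with the most peaks had 14 over 7.34 kb on chromosome 14 from 58267798 to 58275132. The highest signal, 8.44, was at 58236038 to 58236093, 1215 kb from the TSS, above 98.4% of annotated peaks. Within 100 kb of the TSS were 6 peaks, the highest with 3.87.

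**Figure D5:**
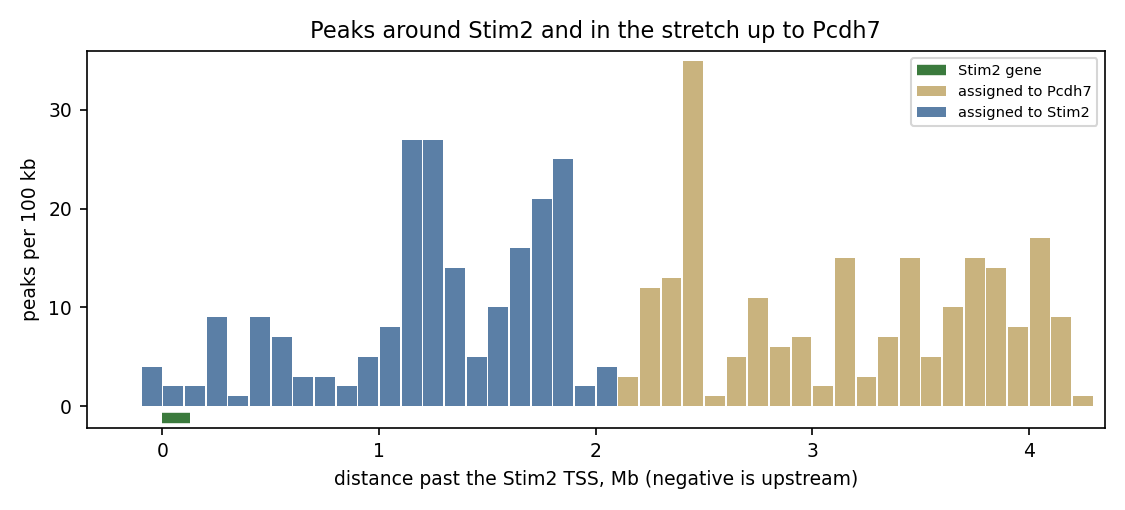
Bars count the peaks in 100 kb bins by distance past the Stim2 TSS (x axis, Mb), blue where the authors' table assigns them to Stim2 and tan where to Pcdh7; the green bar is the Stim2 gene. The gene holds 2 peaks, and the fullest Stim2 bins, with 27, lie more than 1 Mb away.

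The other members' distant peaks were fewer. Trpc6 had 19 of its 20 peaks upstream, from 2.28 to 282 kb before the TSS, with signals of 2.28 to 4.22 and none in the upper 10%. Trpc5 had 8 upstream, from 21.6 to 242 kb, with signals of 2.42 to 3.84. Trpc4 had 10, from 13.9 to 168 kb. Ryr2 had 1, at 41.5 kb.

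None of the 306 peaks overlapped a peak of another list. The annotated table holds α1ACT-only peaks, so absence from the empty-vector lists was set by its construction. Over its 159452 peaks, none overlapped either empty-vector list and 1 overlapped the α1ACT M2 list of 81 peaks. The members' count is thus that of nearly every annotated peak. The whole α1ACT 1804 list of 161730 peaks did share peaks with the 3 lists. Overlapping it were 149 of 244 empty-vector M2 peaks, 179 of 272 empty-vector 1804 peaks and 73 of 81 α1ACT M2 peaks. None of the 3 lists had a peak inside any of the 9 genes. Few genes of the table held one. They were 22 of 14390 for the empty-vector M2 list, 30 for the empty-vector 1804 list and 13 for the α1ACT M2 list. In all 3 lists the peak nearest to a member was 1204 kb from Itpr2. On chromosome X the α1ACT M2 list had no peak at all. The lowest signals of the 3 lists were 14.03 for the empty-vector 1804 library, 19.0 for the empty-vector M2 library and 53.6 for the α1ACT M2 library. Of the member peaks the Trpc1 promoter peak, at 20.3, was above the first 2 of these and the others below all; no source used here gives the scaling of one library to another.

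The other genes of the pathway were taken from 5 lists, 72 matched genes in all. Of these, 38 (52.8%) had a peak within 1000 bp of the TSS, against 32.9% of 18539 RefSeq protein-coding genes. A peak of the upper 10% was there at 15 (20.8%), against 15.1%. This base also counts genes with no assigned peak, unlike the 43.2% of genes in the authors' table set beside the members. The relatives of the members had fewest: 2 of 9. They were Orai3, a store-operated channel pore, with 3 peaks near the TSS and a highest of 8.26 on chromosome 1 from 206239857, 125 bp downstream, and Itpr3, with 3 and a highest of 7.24, 664 bp downstream. Orai1, the main pore opened by STIM1, had no peak nearer than 8046 bp, and Orai2 none nearer than 3581 bp. No peak was assigned to Trpc2, Ryr1 or Ryr3.

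Upstream genes of inositol trisphosphate turnover, G protein subunits among them, carried a peak within 1000 bp in 12 of 17 cases. They were led by Gnaq, the G protein subunit that activates phospholipase C beta, with 9.92 at 130 bp upstream, and by the phospholipase Plcb4, with 9.62 at 476 bp upstream. Partners and regulators had 12 of 26, led by Fkbp1a, an immunophilin that binds ryanodine receptors, with 10.7 at 155 bp upstream, and Itpripl2, with 10.4. Of the calcineurin and NFAT genes, which respond to store-operated entry, 6 of 11 had one, led by Nfatc3, with 8.19 over its TSS, and the calcineurin subunit Ppp3ca, with 6.33. Of the mitochondrial calcium uptake genes 6 of 9 did, led by Micu3, a regulator of the uniporter, with 13.4, and the outer membrane channel Vdac1, with 9.03. None of these reached the 20.3 of Trpc1. Beside these counts, the share over all RefSeq protein-coding genes was 32.9%, and differences between lists of 9 to 26 genes were not tested.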

How the data were processed

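ChIP-seq peak lists of 4 precipitated libraries and 1 annotated table were used; the 2 input libraries have no list analysed here. The signal and the −log10 q-value of each peak are the deposited values of the authors. The submitters' processing notes list HOMER, ChIPseeker, DiffBind, BWA 0.7.5a and FastQC 0.11.2, with rn5 as the build, and no roles. The settings of the peak caller and its control libraries were not given in the sources used here. Every annotated peak was 56 bp wide. Table rows were joined to the α1ACT 1804 list by chromosome and start (Python 3.11.15, pandas 2.3.3), and all rows matched. Percentiles give the share of annotated peaks with lower signal. Distances are the authors' signed distances to the TSS. Peaks inside a gene overlap its longest model in the table. Run finding and overlap were tested on simulated data. The members and lists were chosen with earlier results of these data known. Named genes were the 9 members, in each pathway list the 2 with the highest near-TSS signal, and the 3 nearest to Trpc1 in rank; relatives named for having no near peak, neighbours and genes sharing peaks were added after their values were seen. Of 75 listed symbols 2 were not matched and 1 repeated a gene. Gene names and promoter windows are from RefSeq, assembly GRCr8. With 1 library a group no test between conditions was made.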

Additional observations from a re-analysis of the deposited data

How the results depend on the processing

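The count of members with a peak near the TSS was 2 within 500 bp, within 1000 bp and among peaks at or above the median signal, 4 within 3000 bp (with Trpc6 and Ryr2 added) and 1 in the upper 10% by signal (Trpc1). The 306 assigned peaks became 277 when peaks within 200 bp were merged, 132 at or above the median signal, 15 in the upper 10%, 53 when only peaks inside the gene counted and 100 without Stim2, a setting chosen after seeing the data. The share in the upper 10%, 4.90%, was 5.88% when peaks were ranked within their own place class and 8% without Stim2. No member peak was shared with another list at 1 bp of overlap or with centres within 500 or 5000 bp. For the empty-vector lists the lack of overlap was set by the construction of the table. With the α1ACT M2 list, 1 of all 159452 annotated peaks overlapped, so the lack of overlap there does not set the members apart. Of the 72 pathway genes, 38 had a peak near the TSS, 43 within 3000 bp and 15 in the upper 10%. The 145 member peaks in runs were 73 at a largest step of 1000 bp and 162 at 5000 bp, both chosen after seeing the data. No paired analysis was possible because each group has 1 library. The fewer peaks under signal limits follow from those limits. With the read depth unknown, no limit can be put on enrichment at genes without a listed peak.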
